A study of Mus musculus with 6 samples.

Results

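The gene set described here holds 10 genes of pigment cells and of the retinal pigment epithelium, taken by symbol from a table of gene expression in the retina at postnatal day 7 (P7), and all 10 were found among its 21744 genes. They are 7 melanin genes (*Tyr*, *Tyrp1*, *Dct*, *Pmel*, *Mlana*, *Oca2* and *Slc45a2*), the pigment cell regulator *Mitf*, and 2 genes of the pigment epithelium that make no melanin, *Ttr* and *Rpe65*. The table compares 3 control mice with 3 mice labelled *Lhx4* null, all on a mixed C57BL/6J; 129S6 background. In the study, *Lhx4* null mice carry a tdTomato knock-in allele and a loxP allele of *Lhx4* together with *Six3-Cre*, which acts in the developing retina. Wild type or *Lhx4* loxP/+ mice served as controls in its electroretinograms, while the genotype of each control mouse used for sequencing is not given in the sources used here. One library was made from the retinas of each mouse, after the pigment epithelium had been taken off under a dissecting microscope, and mice of both sexes were used.

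Melanin is made in melanosomes, organelles related to lysosomes, by the enzymes tyrosinase (*Tyr*), TYRP1 and dopachrome tautomerase (*Dct*), on fibrils built by PMEL and at a pH and ion content set by transporters such as OCA2 and SLC45A2. In the eye, melanin lies in the retinal pigment epithelium, the ciliary body and iris, and in choroidal melanocytes, all of which border the neural retina without being part of it. The pigment epithelium also returns the chromophore of visual pigment to its light-sensitive form through the isomerase RPE65, and secretes transthyretin (*Ttr*), the carrier of thyroxine and of retinol-binding protein. MITF, a basic helix-loop-helix factor that binds E-box motifs, drives melanin genes in these cells.

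The targeted gene was examined first. *Lhx4*, a LIM homeobox gene of bipolar cells and cone photoreceptors, was at 20.9, 23.8 and 19.1 FPKM (mapped fragments normalised to transcript length and library depth) in controls 1, 2 and 3. The libraries labelled *Lhx4* null, called null 1, null 2 and null 3 here, had 31.2, 30.3 and 29.0 FPKM. The null libraries were thus all above the controls (log2 fold change 0.51 ± 0.091 SE, adjusted p = 0.0978, limma), a direction opposite to a loss of transcript. An FPKM per gene takes in every exon, whether or not it lies in the deleted part, so it does not check the labels, and every direction below is that of the libraries labelled *Lhx4* null. Defining genes of retinal cells were present in every library, and of the 10 on that list 5 had fold changes above 0 and 5 below, with a median of 0.018 that was -0.016 without control 1 and -0.0062 without null 1, and 0.0041 with median-of-ratios scaling. The photoreceptor factor *Crx* ranged from 502 to 589 FPKM over the 6 libraries. *Grm6*, the glutamate receptor of ON bipolar cells, was at 56.0, 74.3 and 51.2 FPKM in the controls and at 23.5, 17.9 and 22.7 FPKM in the null libraries. It fell by 1.49 ± 0.15 (SE) on the log2 scale (adjusted p = 0.00912, limma, with a range of 0.00745 to 0.249 over 14 alternative settings).

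Depth was read from the steps between low values. It came to about 34800000 mapped fragments in control 1, 27900000 in control 2 and 36300000 in control 3. The estimates for null 1, 2 and 3 were 17000000, 20900000 and 23900000 fragments. All null libraries were thus shallower than all controls, and the part of depth in the differences below was not tested. At these depths the most abundant of the 10 genes, *Ttr*, rested on about 512 to 1378 fragments per library and *Dct* on 399 to 957. The scarce ones rested on few, about 3.85 to 20.8 for *Mlana* and 6.21 to 13.1 for *Slc45a2*, so that counting error alone is large for these.

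The promoters are shown before the levels of the genes, and any part of them in those levels was not tested. RefSeq (GRCm38.p6) promoter windows, which run from 250 bases before to 50 bases after the start of a gene, were matched by symbol for 6 of the 10 genes: *Tyr*, *Tyrp1*, *Dct*, *Oca2*, *Mitf* and *Rpe65*. *Pmel*, *Mlana*, *Slc45a2* and *Ttr* are named only. Each window was searched on both strands for CATGTG, an E-box that MITF is known to bind, which is written CACATG when it lies on the other strand. The 5 windows that hold it are given below 5′ to 3′ on the strand of the gene, with the motif in capitals. They are *Tyr* at chr7:87493463-87493762 (minus strand), *Tyrp1* at chr4:80833963-80834262 (plus strand), *Dct* at chr14:118052197-118052496 (minus strand), *Oca2* at chr7:56239509-56239808 (plus strand) and *Rpe65* at chr3:159598931-159599230 (plus strand).
Tyr: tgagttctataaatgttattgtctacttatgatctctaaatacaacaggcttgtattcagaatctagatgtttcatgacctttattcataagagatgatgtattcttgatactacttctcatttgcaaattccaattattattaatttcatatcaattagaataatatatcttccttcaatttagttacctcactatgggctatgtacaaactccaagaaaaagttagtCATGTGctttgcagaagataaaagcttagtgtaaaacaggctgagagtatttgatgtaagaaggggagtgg
Tyrp1: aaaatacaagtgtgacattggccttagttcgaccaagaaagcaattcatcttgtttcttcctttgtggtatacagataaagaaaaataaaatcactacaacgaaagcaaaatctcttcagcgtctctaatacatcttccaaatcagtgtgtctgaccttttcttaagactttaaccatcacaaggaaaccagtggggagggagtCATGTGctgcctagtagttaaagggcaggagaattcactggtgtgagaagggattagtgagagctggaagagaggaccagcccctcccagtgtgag
Dct: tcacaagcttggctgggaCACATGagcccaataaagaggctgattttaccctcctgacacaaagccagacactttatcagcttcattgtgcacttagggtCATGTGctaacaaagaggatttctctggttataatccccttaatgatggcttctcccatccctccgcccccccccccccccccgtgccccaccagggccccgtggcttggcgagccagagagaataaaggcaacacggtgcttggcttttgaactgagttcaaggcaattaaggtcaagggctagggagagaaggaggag
Oca2: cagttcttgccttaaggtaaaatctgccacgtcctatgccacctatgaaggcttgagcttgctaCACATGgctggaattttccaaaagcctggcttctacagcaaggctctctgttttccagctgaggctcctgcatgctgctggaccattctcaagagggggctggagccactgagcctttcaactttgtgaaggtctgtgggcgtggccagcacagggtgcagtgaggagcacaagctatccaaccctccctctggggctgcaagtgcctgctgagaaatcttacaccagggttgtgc
Rpe65: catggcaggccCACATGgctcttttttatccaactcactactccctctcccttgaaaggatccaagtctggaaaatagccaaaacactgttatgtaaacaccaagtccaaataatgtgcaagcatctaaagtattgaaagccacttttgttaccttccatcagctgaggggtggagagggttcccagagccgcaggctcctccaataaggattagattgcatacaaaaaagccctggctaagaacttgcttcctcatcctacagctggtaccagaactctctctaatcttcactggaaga

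Counted from the start of the gene, CATGTG began at -21 in *Tyr*, at -46 in *Tyrp1*, and at -232 and -150 in *Dct*. It began at -186 in *Oca2* and at -239 in *Rpe65*, and none of the 3 *Mitf* windows held it. Of all 32851 windows of this length, 14.2% held the motif on either strand. The sequence around it was shared more narrowly. The 11 bases AGTCATGTGCT of the *Tyr* window, the longer form known as the M-box, were also in the *Tyrp1* window and in 0.0213% of all windows (7 windows). TCATGTG, which contains CATGTG, was in 3.77% of windows, while the palindromic E-box CACGTG was in 7.15% of all windows and in none of those matched here. These matches describe letters in a window and show no binding.

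The enzymes of melanin synthesis shared 1 order over the libraries. *Dct*, which converts dopachrome, was at 6.88, 5.95 and 3.86 FPKM in controls 1, 2 and 3 and at 6.81, 8.84 and 11.6 FPKM in null 1, 2 and 3. *Tyrp1*, its relative that acts later in the pathway, was at 2.46, 1.83 and 1.13 FPKM in the controls and at 2.19, 3.26 and 4.06 FPKM in the null libraries. *Tyr*, which catalyses the first and rate-limiting step, was at 0.761, 0.686 and 0.368 FPKM in the controls and at 0.717, 0.874 and 1.31 FPKM in the null libraries. In each of these 3 genes null 3 was highest, followed by null 2, control 1, null 1, control 2 and control 3, so that the groups overlapped at control 1 and null 1. The highest library was 2.99 times the lowest for *Dct*, 3.60 times for *Tyrp1* and 3.55 times for *Tyr*. On log2(FPKM + 0.1), a scale that understates changes of low genes, the fold changes of null over control were 0.70 ± 0.24 for *Dct*, 0.80 ± 0.30 for *Tyrp1* and 0.61 ± 0.30 for *Tyr* (SE). Without control 3 they were 0.46, 0.51 and 0.34, and without null 3 the value for *Tyr* was 0.39. With a pseudocount of 1 FPKM in place of 0.1, *Tyr* was at 0.29. Adjusted p-values from limma over all 15200 genes tested were 0.528, 0.569 and 0.645, so none of the 3 enzymes passed 0.05.

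**Figure D1:**
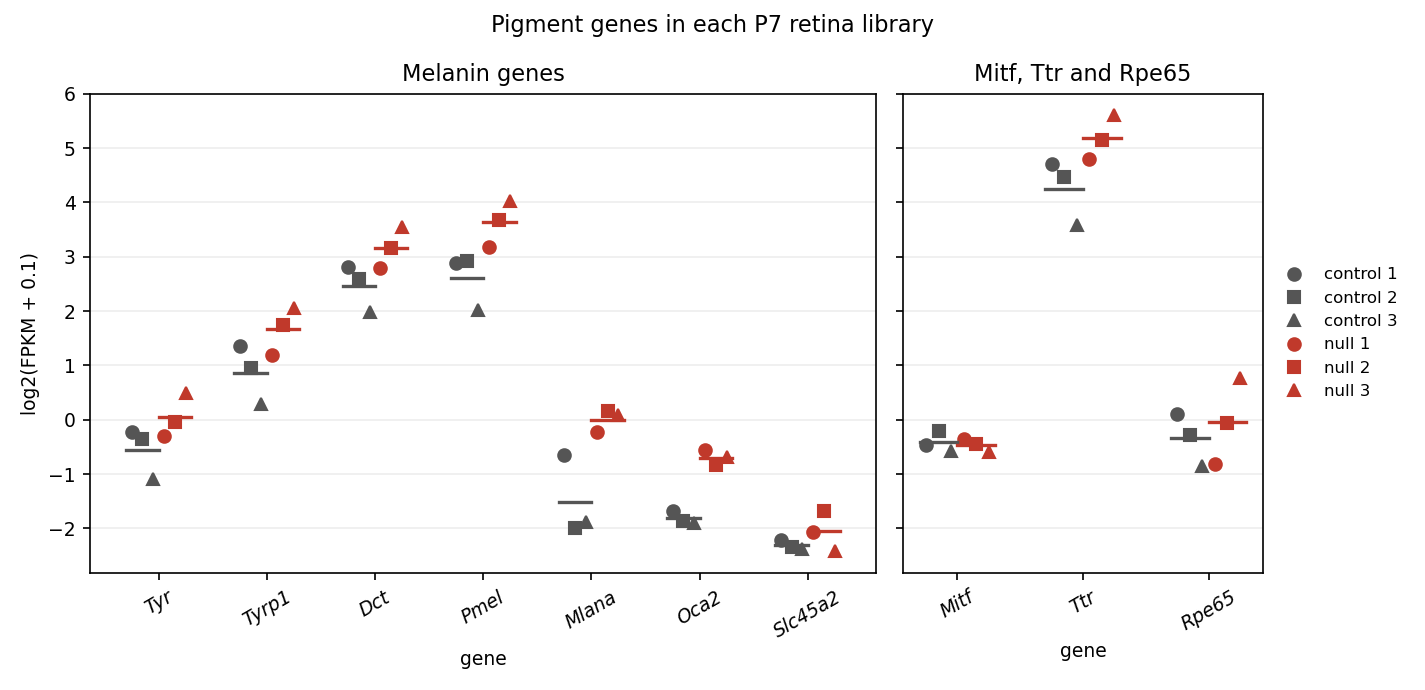
Each point is 1 library, plotted as log2(FPKM + 0.1), for the melanin genes (left) and for *Mitf*, *Ttr* and *Rpe65* (right), with controls in grey, libraries labelled *Lhx4* null in red and lines at the group means. Control 3 is the lowest library and null 3 the highest for *Tyr*, *Tyrp1*, *Dct*, *Pmel*, *Ttr* and *Rpe65*, while *Mitf* varies little.

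The structural proteins of the melanosome were further apart between the groups. *Pmel*, whose product forms the fibrils on which melanin is laid down, was at 7.33, 7.51 and 3.95 FPKM in the controls and at 8.98, 12.7 and 16.2 FPKM in null 1, 2 and 3. *Mlana*, which encodes a small membrane protein that helps PMEL to mature, was at 0.539, 0.152 and 0.172 FPKM in the controls and at 0.751, 1.01 and 0.957 FPKM in the null libraries. In both genes every null library was above every control, although the gap between the highest control and the lowest null library was smaller than the range within either group. Group means were 6.26 ± 2.01 against 12.6 ± 3.62 FPKM for *Pmel* and 0.288 ± 0.218 against 0.907 ± 0.138 FPKM for *Mlana* (SD, n = 3). The log2 fold change was 1.02 ± 0.28 for *Pmel* (SE, adjusted p = 0.388, limma) and 1.50 ± 0.36 for *Mlana* (adjusted p = 0.270). With a pseudocount of 1 FPKM, the value for *Mlana* was 0.58.

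The transporters gave unlike values. *Oca2*, which encodes a melanosomal anion channel, was at 0.211, 0.175 and 0.168 FPKM in the controls and at 0.578, 0.462 and 0.518 FPKM in null 1, 2 and 3. Here the groups were compact and well apart, with means of 0.185 ± 0.0230 and 0.520 ± 0.0576 FPKM (SD, n = 3) and about 16.5 to 41.9 fragments per library. Counting error also matters at so few fragments, so the small spread may not hold in further libraries. Unlike the enzymes, *Oca2* was highest in null 1. Its log2 fold change was 1.12 ± 0.21 (SE), with an adjusted p of 0.123 from limma with a mean-variance trend. Without the trend limma gave an adjusted p of 0.0284, at an SE of 0.11 that rests more on the small spread of this gene. The adjusted p ranged from 0.0284 to 0.467 over its 13 alternatives. A pseudocount of 1 FPKM gave a log2 fold change of 0.36. *Slc45a2*, a proton-coupled sugar transporter of the melanosome, was at 0.117, 0.0971 and 0.0933 FPKM in the controls and at 0.140, 0.211 and 0.0870 FPKM in the null libraries. Null 3, the highest library for the enzymes, was the lowest for *Slc45a2*, at about 6 fragments, and null 2 was the highest at about 13. Its log2 fold change was 0.25 ± 0.29 (SE, adjusted p = 0.849, limma), and it was 0.067 without null 2 and 0.43 without null 3. Pseudocounts of 1 and 0.01 FPKM gave 0.055 and 0.40.

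*Mitf*, the regulator, did not share the order of the enzymes. Controls 1, 2 and 3 were at 0.626, 0.765 and 0.571 FPKM and null 1, 2 and 3 at 0.685, 0.630 and 0.559 FPKM. The groups overlapped throughout, the highest library was 1.37 times the lowest, and null 3, where the enzymes were highest, was the lowest for *Mitf*. The log2 fold change was -0.053 ± 0.19 (SE, adjusted p = 0.962, limma), which turned to 0.050 without control 2 and to 0.013 without null 3, and was -0.13 without control 3 and -0.11 without null 1. It was -0.025 with a pseudocount of 1 FPKM and -0.087 with quantile normalization. The FPKM sums over all *Mitf* transcripts, and its isoforms, some of which are used in the pigment epithelium and others in melanocytes, could not be told apart.

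Of the pigment epithelium genes outside melanin synthesis, *Ttr* was the most abundant of the 10. It was at 25.9, 22.1 and 11.9 FPKM in controls 1, 2 and 3 and at 27.8, 35.3 and 48.5 FPKM in null 1, 2 and 3. The order matched that of *Dct* except that null 1 lay just above control 1, so that the groups did not overlap. Means were 20.0 ± 7.25 and 37.2 ± 10.5 FPKM (SD, n = 3), and the log2 fold change was 0.93 ± 0.29 (SE, adjusted p = 0.484, limma), or 0.60 without control 3. *Rpe65*, the retinoid isomerase, was at 0.975, 0.727 and 0.457 FPKM in the controls and at 0.465, 0.862 and 1.61 FPKM in the null libraries. Null 1 was nearly as low as control 3 and null 3 was highest, so that the groups overlapped almost fully. The log2 fold change of *Rpe65* was 0.30 ± 0.41 (SE, adjusted p = 0.878, limma), and it was -0.10 without null 3, 0.050 without control 3, 0.52 without control 1 and 0.70 without null 1. A pseudocount of 1 FPKM gave 0.17.

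Over all 10 genes, 0 passed an adjusted p of 0.05 in limma. The background was low too, with 34 of 15200 genes (0.224%) called in either direction, 13 (0.0855%) higher and 21 (0.138%) lower in the null libraries. The 13 higher became 3 without control 1, control 3 or null 2, 2 without null 3 and 7 without control 2, and 4 with a replicate block. The 21 lower became 13 without control 1, control 2 or null 3 and 11 with the block, and with no filter on low values both counts were 0. The 10 genes were chosen with earlier results of these data known, so a share above that of all genes may be partly built in. They are not separate pieces of evidence either, as *Tyrp1*, *Dct*, *Pmel* and *Ttr* had pairwise r of 0.967 to 0.995 over the 6 libraries. At an unadjusted p under 0.05, 6 of the 10 were higher (*Tyrp1*, *Dct*, *Pmel*, *Mlana*, *Oca2* and *Ttr*), beside 4.6% of all genes tested, and 0 were lower, beside 3.55%. That count was 3 without null 3, beside 980 of 15191 genes in that fit, and 3 with no filter on low values, beside 791 of 21744 genes. Every null library was above every control for 4 of the 10 (*Pmel*, *Mlana*, *Oca2* and *Ttr*), beside 8.1% of all genes, and for none was every null library below every control, beside 6.13%. Among the 7 melanin genes alone, every null library was above every control for 3, and for 6 when control 1 or null 1 is left out, beside 11.4% and 18.1% of all genes with these left out. With 3 libraries against 3, an exact permutation test of a single gene cannot give a two-sided p below 0.1. The median log2 fold change of the melanin genes was 0.80, beside 0.011 for all genes tested, and 0.51 without control 3. In whole retinas, more pigmented cells and more RNA per cell cannot be told apart.

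**Figure D2:**
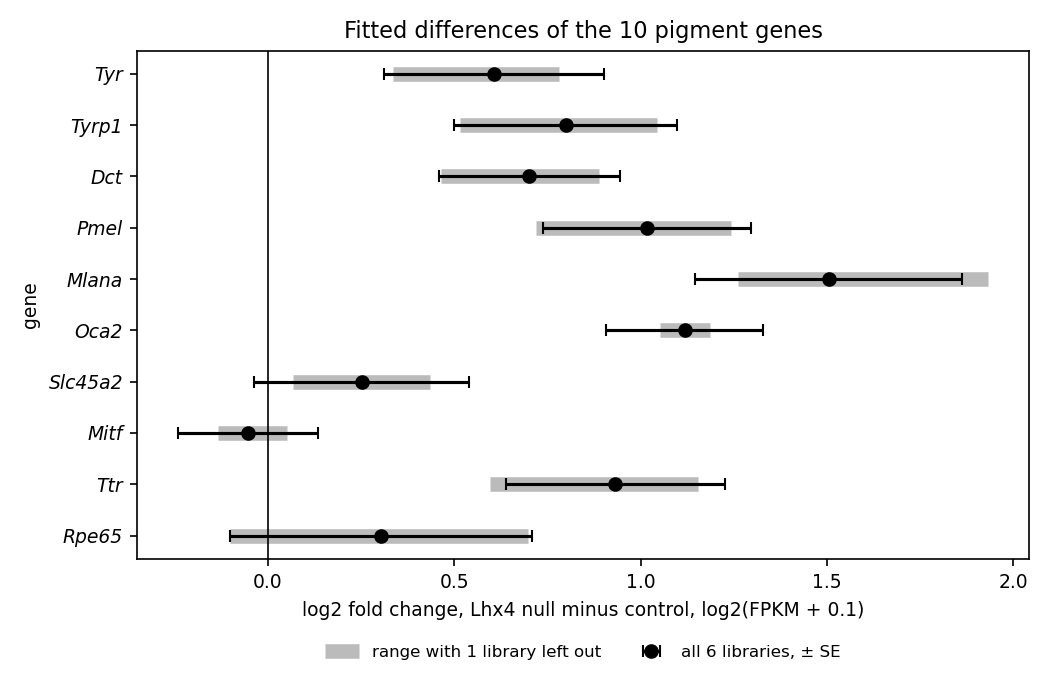
Points are the fitted log2 fold changes of the libraries labelled *Lhx4* null over controls on log2(FPKM + 0.1), with bars of 1 SE, and grey bands span the values obtained when each of the 6 libraries is left out in turn. *Mlana*, *Oca2* and *Pmel* lie highest at 1.50, 1.12 and 1.02, and the bands of *Mitf* and *Rpe65* cross 0.

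Levels within a library showed how closely some of these genes varied together. *Ttr* was 3.76, 3.72 and 3.07 times *Dct* in controls 1, 2 and 3 and 4.08, 3.99 and 4.20 times *Dct* in null 1, 2 and 3. This ratio spanned 1.37-fold over the libraries, where *Ttr* itself spanned 4.08-fold. *Tyr* was 0.0953 to 0.115 times *Dct*, a span of 1.21-fold with no separation of the groups, and *Tyrp1* was 0.292 to 0.368 times *Dct*, a span of 1.26-fold. The ratio of *Pmel* to *Dct* was 1.06, 1.26 and 1.02 in the controls and 1.32, 1.44 and 1.40 in the null libraries, which did not overlap but differed far less than *Pmel* alone. *Mlana*, *Oca2*, *Rpe65* and *Mitf* did not keep a steady ratio. Relative to *Dct*, *Mlana* spanned 4.48-fold, *Mitf* 3.05-fold, *Oca2* 2.88-fold and *Rpe65* 2.07-fold. Counting error enters these spans. *Mlana* rested on only about 3.85 to 20.8 fragments per library, *Oca2* on 16.5 to 41.9 and *Rpe65* on 14.7 to 71.9. For *Oca2* the ratio was highest in null 1 (0.0849) and nearly equal in control 3 (0.0436) and null 3 (0.0449). *Rpe65* relative to *Dct* was highest in control 1 (0.142) and null 3 (0.139) and lowest in null 1 (0.0684). The ratios were chosen after the values were seen and are given as a description.

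**Figure D3:**
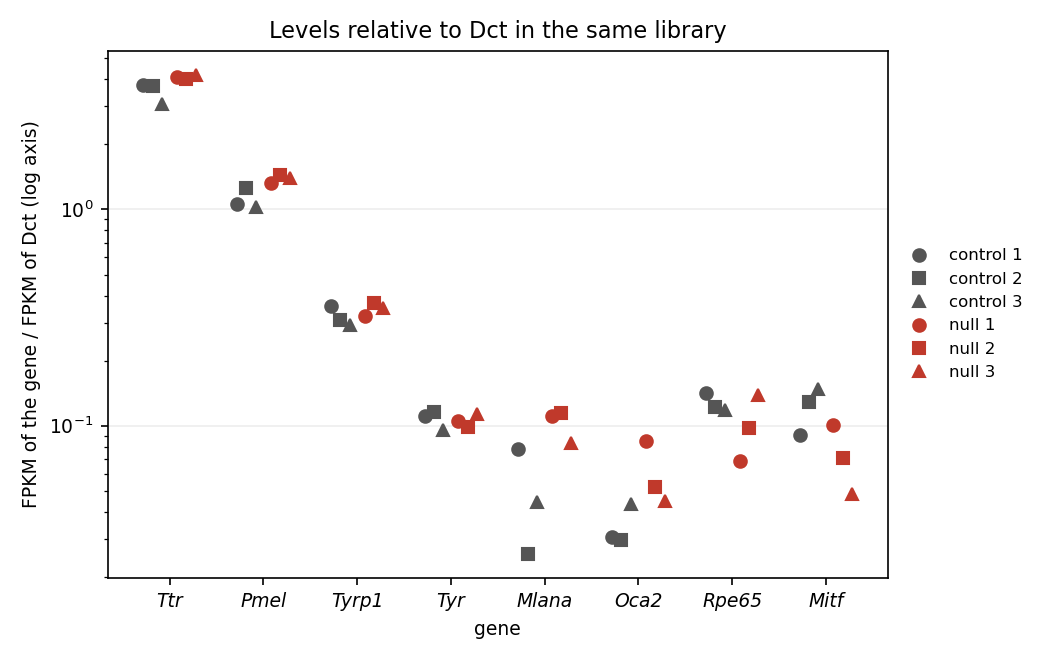
Each point is the FPKM of 1 gene divided by that of *Dct* in the same library, on a log axis, with controls in grey and libraries labelled *Lhx4* null in red. *Tyr* and *Tyrp1* keep a near-constant ratio over the 6 libraries, *Ttr* and *Pmel* vary slightly more, and *Mlana*, *Oca2*, *Rpe65* and *Mitf* are spread out. The points of *Mlana* rest on few fragments, so counting error adds to their spread.

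The mean of the 7 melanin genes, each centred on its own mean over the libraries, was -0.066, -0.40 and -0.81 on the log2 scale in controls 1, 2 and 3 and 0.18, 0.49 and 0.62 in null 1, 2 and 3. Control 1 and null 1 were thus the closest libraries of the opposite groups, 0.25 apart, while controls 1 and 3 were 0.75 apart. Among 1795 genes outside the set with a range of at least 1 on the log2 scale, the 8 most like this mean by Pearson's r over the 6 libraries had r from 0.971 to 0.989. They were *Tmem72*, *Cdh3*, *Eqtn*, *Col8a2*, *Rgr*, *Col8a1*, *Col4a4* and *Car12*. *Cdh3*, or P-cadherin, and *Rgr*, an opsin that binds all-trans-retinal, are known from the pigment epithelium and were on the list of its genes, although *Rgr* is also found in other retinal cells. *Col8a1*, *Col8a2* and *Col4a4* encode basement membrane collagens, and *Car12* a membrane-bound carbonic anhydrase. *Rgr* was at 5.09, 4.46 and 3.22 FPKM in the controls and at 6.22, 6.41 and 8.36 FPKM in the null libraries. *Col8a1* ran from 0.915 FPKM in control 3 to 4.15 FPKM in null 3. The 5 genes most like *Ttr* (r from 0.977 to 0.993) were *Col4a4*, *Col8a1*, *Rgr*, *Clic6* and *Car12*, of which 4 are also among the 8 above. The 5 most like *Rpe65* (r from 0.946 to 0.978) were *Fstl3*, *1700067K01Rik*, *Tmem27*, *Ly6c2* and *Qrich2*, and none of them is among those most like the melanin genes or *Ttr*. All points of such an r share the same 6 libraries.

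**Figure D4:**
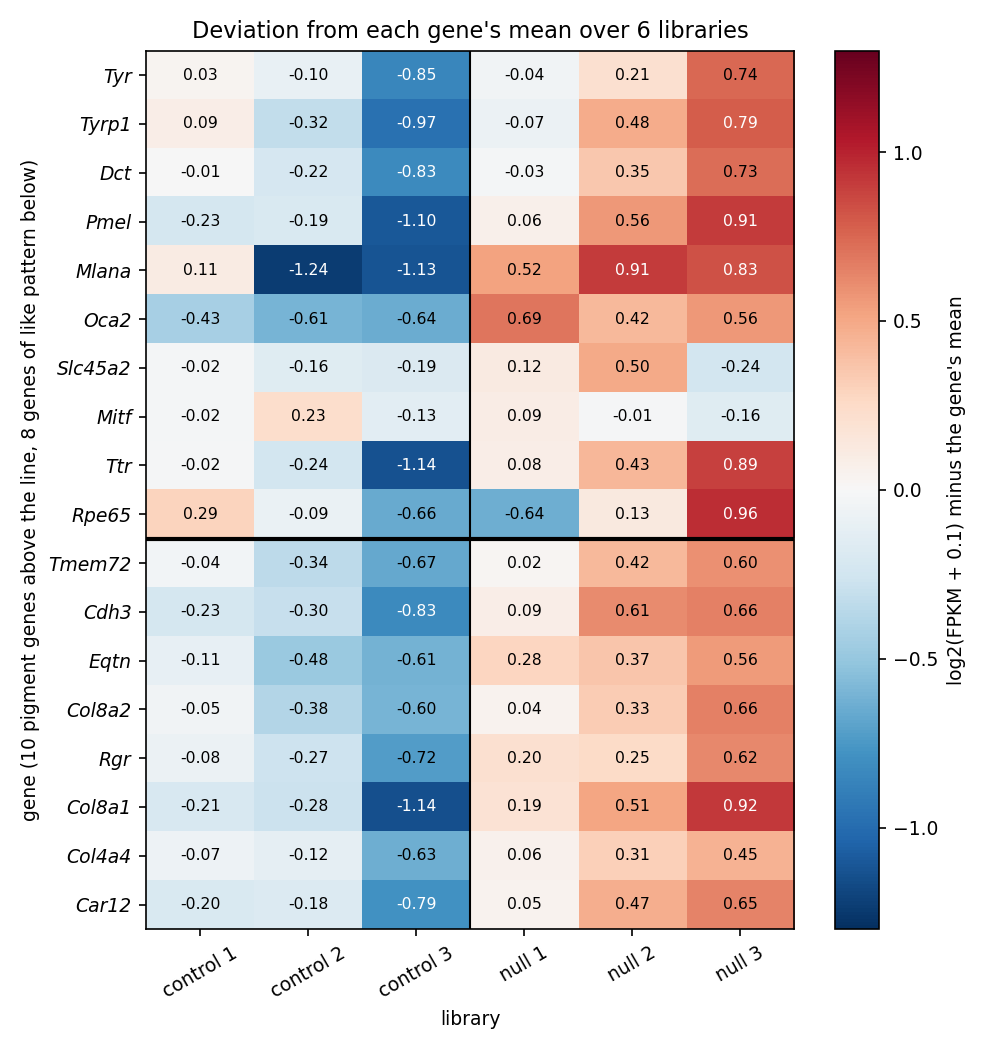
Colours and numbers give log2(FPKM + 0.1) minus the mean of the gene over the 6 libraries, with the 10 pigment genes above the line and the 8 genes of like pattern below it. Control 3 is lowest and null 3 highest in the rows other than *Mlana*, *Oca2*, *Slc45a2* and *Mitf*, from -1.14 to 0.89 for *Ttr*.

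Other genes of pigment cells were also examined as lists. Of 10 further melanosome and pigment cell genes, 9 were in the table and 7 were tested, and all 7 had fold changes above 0, beside 8104 of all 15200 genes, with a median of 0.42 and 0 calls at an adjusted or unadjusted p under 0.05 in limma. The summed level was 6.79, 8.08 and 5.56 FPKM in the controls and 8.43, 9.23 and 9.40 FPKM in the null libraries. The most abundant were *Rab27a*, which tethers melanosomes to actin and acts in secretion in many cells, with a log2 fold change of 0.25 ± 0.15 (SE; 0.16 without control 1 and 0.38 without control 2), and the melanosomal exchanger *Slc24a5*, with 0.42 ± 0.27 (0.16 without null 2 and 0.20 without control 3). *Slc24a5* was at 2.48, 1.94 and 1.34 FPKM in the controls and at 2.04, 3.67 and 2.15 FPKM in the null libraries, with overlap. Leaving out control 3 brought the median of the list to 0.21, and leaving out null 2 brought it to 0.27. It was 0.20 with a pseudocount of 1 FPKM and 0.25 with no filter on low values. By contrast, the 15 genes of organelle biogenesis that most cells use, such as the Hermansky-Pudlak genes and AP-3 subunits, had a median of 0.025 (0.0016 to 0.045 with a library left out, 0.012 with median-of-ratios and 0.0029 with quantile scaling), with 8 fold changes above 0 and 7 below. *Ap3d1* (0.087 ± 0.10) and *Myo5a* (0.094 ± 0.093) were the most abundant. With a library left out, *Ap3d1* lay between 0.020 without null 2 and 0.19 without null 3, and *Myo5a* between 0.0071 without null 3 and 0.15 without null 2. Of the other genes, at an unadjusted p under 0.05 *Hps1* was higher (0.29 ± 0.12) and the copper pump gene *Atp7a* lower (-0.33 ± 0.14, or -0.21 without null 2).

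Among 19 further genes of the pigment epithelium, 15 had fold changes above 0 and 4 below, beside 8104 and 7096 of all genes tested, with a median of 0.21. This list too was chosen with earlier results of these data known. None of its genes passed an adjusted p of 0.05 in limma. At an unadjusted p under 0.05, 7 were higher, beside 4.6% of all genes, and 0 were lower, beside 3.55%. The count of 7 was 3 without control 3 (384 of 15201 genes) and 4 without control 1 (426 of 15210), null 2 (442 of 15209) or null 3 (980 of 15191). The 7 were *Rgr* (log2 fold change 0.72 ± 0.18 SE), *Cdh3* (0.90 ± 0.25), the chloride channel family gene *Clic6* (0.75 ± 0.32, or 0.49 without control 3 or null 3), the retinol-binding protein receptor *Stra6* (0.56 ± 0.12), the lactate transporter *Slc16a8* (0.43 ± 0.18, or 0.27 without control 3), the phagocytosis receptor *Mertk* (0.36 ± 0.15) and the growth factor *Igf2* (0.23 ± 0.077). With a pseudocount of 1 FPKM, *Cdh3* was at 0.37, *Clic6* at 0.29 and *Mertk* at 0.24. *Stra6*, which takes up vitamin A from the blood side of the epithelium, was at 3.72, 4.24 and 3.61 FPKM in the controls and at 5.11, 5.94 and 6.18 FPKM in the null libraries (adjusted p = 0.173, limma). Every null library was above every control for this gene. The 4 below 0 were the anion channel *Best1* (-0.50 ± 0.32), the potassium channel *Kcnj13* (-0.46 ± 0.26), the autotaxin gene *Enpp2* (-0.073 ± 0.093, or -0.0081 without null 2) and *Serpinf1*, which encodes pigment epithelium-derived factor (-0.023 ± 0.14, -0.037 with median-of-ratios scaling, and 0.095 without control 3 and 0.015 without null 3). *Best1*, a defining gene of the pigment epithelium, was at 0.273, 0.251 and 0.165 FPKM in the controls and at 0.118, 0.0717 and 0.230 FPKM in the null libraries, with overlap, and did not follow the mean of the melanin genes (r = -0.30 over the 6 libraries). Its log2 fold change was -0.28 without null 2 and -0.75 without null 3, and that of *Kcnj13* was -0.74 without null 1 and -0.26 without null 3. With a pseudocount of 1 FPKM, *Best1* was at -0.11 and *Kcnj13* at -0.21, and with one of 0.01 FPKM *Best1* was at -0.79. The list is dominated by *Rlbp1*, which Müller cells also express, at 110 to 123 FPKM with a log2 fold change of 0.074 ± 0.067. *Rgr* and *Mertk*, among the 7 higher genes, are also found in other retinal cells. Of 5 visual cycle genes of the photoreceptors, 4 had fold changes below 0, with a median of -0.32 that was -0.63 without null 1, -0.19 without null 2 and -0.21 without null 3, among them the retinol dehydrogenase *Rdh12* (-0.48 ± 0.19, or -0.30 without null 2), while the abundant retinoid carrier *Rbp3* was at 0.15 ± 0.14, from 0.066 without control 3 to 0.27 without null 3.

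Relatives and known regulators of *Mitf* gave no common direction, with 4 of 6 tested above 0 and a median of 0.080 that was -0.017 without null 2. *Otx2*, which acts with MITF in the pigment epithelium, was the most abundant at 260 to 375 FPKM, with a log2 fold change of 0.074 ± 0.14 (SE) that was -0.015 without null 2 and -0.011 without null 3, and 0.25 without null 1. *Pax6* (0.20 ± 0.066) and *Lhx2* (0.30 ± 0.11, or 0.18 without null 2) were higher at an unadjusted p under 0.05. The relative *Tfec*, which is known from the pigment epithelium, was listed at 0 in 3 libraries and did not exceed 0.0284 FPKM in any.

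Markers of the tissues around the retina were checked because several of them also carry pigment. For melanocytes of neural crest origin, the defining genes *Sox10* and *Pax3* were near 0, at means of 0.0734 and 0.00792 FPKM in the controls and 0.0929 and 0.00980 FPKM in the null libraries. *Kit*, the most abundant gene of that list and one that other retinal cells also express, was at 7.01, 6.87 and 6.15 FPKM in the controls and at 7.18, 11.5 and 9.83 FPKM in the null libraries (0.48 ± 0.16, adjusted p = 0.524, limma). *Ednrb*, which is also a Müller cell gene, was at 0.17 ± 0.18, from 0.027 without null 3 to 0.29 without null 1. The list summed to 8.68, 8.37 and 8.07 FPKM in the controls and to 8.82, 13.3 and 12.2 FPKM in the null libraries. Of 6 ciliary margin genes 5 were tested, with 3 fold changes above 0 and a median of 0.11, which was 0.012 without control 1, 0.022 without null 1, 0.22 without control 2 and 0.21 without null 2. Pseudocounts of 1 and 0.01 FPKM gave a median of 0.027 and 0.17, no filter on low values 0.030 and a filter at 1 FPKM 0.28. The abundant *Col9a1* (-0.055 ± 0.14) was at 0.083 without null 2, 0.026 without control 2 and -0.18 without null 1, *Zic1* was at 0.43 ± 0.18, or 0.22 without control 2, and *Msx1* was listed at 0 in null 1. Their sum was 33.1, 35.9 and 31.7 FPKM in the controls and 38.8, 30.6 and 34.9 FPKM in the null libraries, with overlap.

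Of 9 genes of the choroid and periocular connective tissue, 6 were tested, 4 with fold changes above 0, and their sum was 11.3, 11.6 and 11.1 FPKM in the controls and 14.1, 14.7 and 16.0 FPKM in the null libraries. *Pdgfra*, which retinal astrocytes also express, was the most abundant (0.14 ± 0.092, or 0.079 without null 3), and the median of the list was 0.17, or 0.081 without control 3 and 0.10 without null 3. It was 0.081 and 0.26 with pseudocounts of 1 and 0.01 FPKM and 0.38 with a filter at 1 FPKM. *Col1a2*, a type I collagen chain, was at 2.00, 2.07 and 1.29 FPKM in the controls and at 4.12, 4.24 and 4.72 FPKM in the null libraries. It rose by 1.26 ± 0.18 (SE) on the log2 scale with an adjusted p of 0.0489 in limma, which ran from 0.0346 to 0.359 over 14 alternatives and passed 0.05 in 2 of them. Its partner chain *Col1a1* was far lower, at 0.0593 to 0.180 FPKM with overlapping groups, and *Col3a1* (-0.29 ± 0.19) was lower in every null library than in every control. *Plvap*, of the fenestrated vessels of the choroid, had a log2 fold change of 0.38 ± 0.15, or 0.22 with a pseudocount of 1 FPKM. Among genes of the list too low to be tested, *Dcn*, a collagen-binding proteoglycan, was at 0.0169, 0.0211 and 0.0323 FPKM in the controls and at 0.139, 0.113 and 0.116 FPKM in the null libraries, every one above every control, and *Lum* was listed at 0 in all libraries but null 3. The part of neighbouring tissue, including pigment epithelium left on the retina at dissection, in the values of the 10 genes was not tested.

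**Figure D5:**
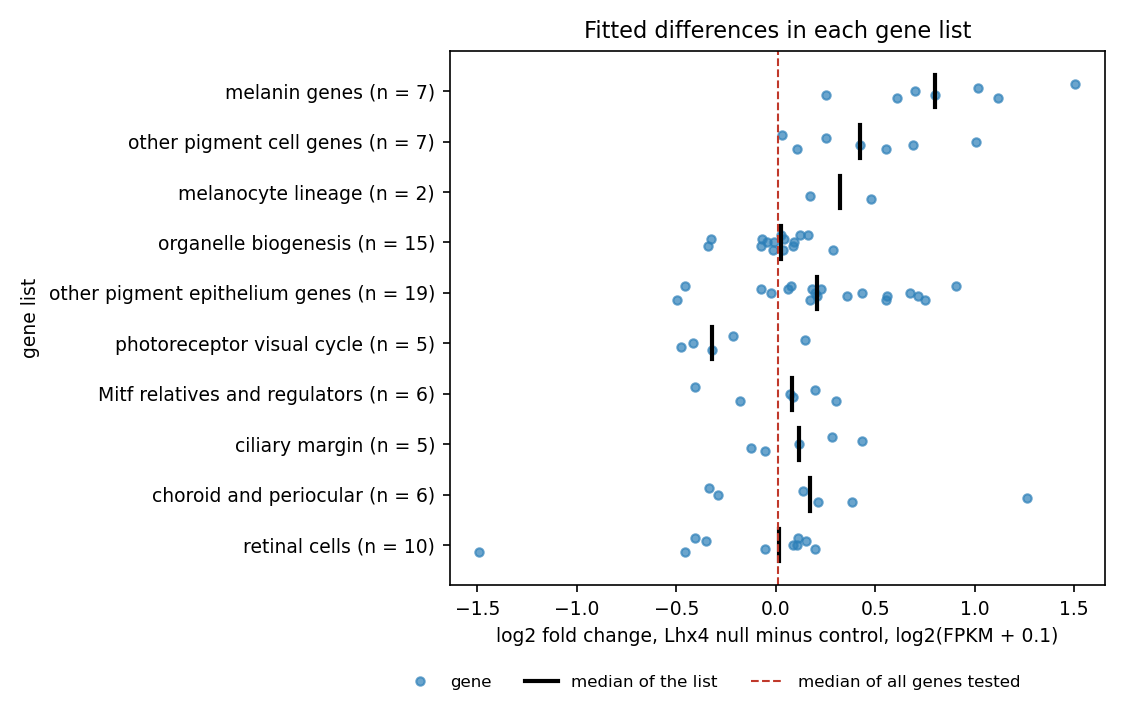
Each dot is the fitted log2 fold change of 1 gene on log2(FPKM + 0.1), libraries labelled *Lhx4* null minus controls, with a black bar at the median of its list and a dashed line at 0.011, the median of all genes tested. The medians are 0.80 for the melanin genes, 0.42 for other pigment cell genes, 0.21 for other pigment epithelium genes and 0.025 for organelle biogenesis genes.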

How the data were processed

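RNA from P7 retinas (RNeasy, TruSeq libraries, Illumina HiSeq, paired ends) was mapped by the authors to GRCm38 with Tophat (TopHat2 in the submitters' processing notes), and FPKM values were estimated with Cufflinks and deposited per gene; versions are not given in the sources used here. Values of log2(FPKM + 0.1) for 15200 genes averaging 0.1 FPKM or more, all 10 members among them, were fitted with limma 3.58.1 (R 4.3.3; mean-variance trend, Benjamini-Hochberg adjustment over all genes tested). The fit was tested on simulated data. Relative depth came from the most frequent ratio between libraries of values under 0.1 FPKM, and its scale from 46 low genes with 1 transcript. Fragments per gene are approximate and assume the longest transcript. Members and lists (93 genes, of which *Mc1r* was not found) were chosen with earlier results of these data known. From other lists the text names genes with an unadjusted p under 0.05 and the 2 most abundant, and the genes most like the melanin mean (8), *Ttr* and *Rpe65* (5 each); any others were chosen after their values were seen. Some genes this rule names are not reported here. Alternatives covered the pseudocount, filter, scaling, trend, replicate block and each library left out.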

Additional observations from a re-analysis of the deposited data

How the results depend on the processing

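Of 134 values of the 10 members' log2 fold changes under 14 alternative settings, 130 kept their direction and their side of an adjusted p of 0.05. Without the mean-variance trend *Oca2* passed (1.12, adjusted p = 0.0284), so that 1 member was called. With a library left out, the log2 fold change of *Mitf* ran from -0.13 to 0.050 and that of *Rpe65* from -0.10 to 0.70, both crossing 0, as did those of *Otx2* (-0.015 to 0.25), *Col9a1* (-0.18 to 0.083) and *Serpinf1* (-0.12 to 0.095); the cause was not tested. Melanin genes with every null library above every control were 3 to 6 with a library left out, and 1 at a filter of 1 FPKM, which leaves fewer of these genes in the test. Their median log2 fold change ran from 0.51 to 1.04 with a library left out. Over all genes, calls numbered 34, 0 with no filter on low values, and 15 to 31 with a library left out. Median-of-ratios and quantile scaling moved the median of all genes by less than 0.1.

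Same-numbered libraries had correlations of -0.127, -0.000198 and 0.162 between their deviations from group means, and differently numbered ones had -0.244 to 0.236. The deviations within a group sum to 0, which constrains these values, so they do not settle whether libraries were paired. With a replicate block, 15 genes and 0 members were called.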
